A study of Mus musculus with 8 samples.

Results

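Smooth muscle contractile genes were described in immortalized mouse embryonic fibroblasts (MEFs) with and without SLMAP3. The set was fixed by name and holds 10 genes, Acta2, Actg2, Tagln, Cnn1, Cnn2, Myl9, Myh11, Tpm1, Tpm2 and Lmod1, of the 55401 genes listed in the deposited count table. All 10 had counts above the filter on low values. RNA was sequenced from 4 SLMAP3-/- and 4 WT lines, with 1 library per line, each line made from a different E14.5 embryo of the B6C3F1 strain after removal of the head and organs. All 8 lines, WT included, had been immortalized with SV40 large T antigen. The SLMAP3-/- embryos came from mice in which Cre driven by the CMV promoter had recombined a floxed exon 3 of Slmap, so that the deletion is not restricted to a cell type. Total estimated counts spanned 50952494 to 59854680 for SLMAP3-/- and 49879059 to 63322486 for WT.

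A myofibroblast is a fibroblast that has acquired part of the contractile machinery of smooth muscle. Its hallmark is alpha smooth muscle actin, the product of Acta2, which is built into stress fibres together with tropomyosins, calponins, transgelin and myosin. The genes of this machinery are classic targets of serum response factor (SRF), which binds a DNA element called the CArG box and is assisted by the myocardin-related factors MRTF-A and MRTF-B. These cofactors are held in the cytoplasm by monomeric actin and enter the nucleus when actin polymerises, so that contractile genes are sensitive to stiffness, spreading and TGF-beta. Myocardin, their relative in differentiated smooth muscle, and the heavy chain gene Myh11 mark the mature muscle cell.

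The promoters of the genes whose levels moved most closely with Acta2 in these lines are shown first, since their regulatory sequence is the common ground on which this family is usually discussed. RefSeq windows on GRCm38.p6 were at hand for 7 of the 10 genes. The 250 bases before the start annotated in RefSeq are given for 4 of them, 5′ to 3′ on the strand of the gene. Capitals mark a CArG box, either the consensus of CC, a run of A or T, and GG, or the form with a C or G at 1 inner position. Acta2 lies on the minus strand and its window is chr19:34255374-34255623, Myl9 on the plus strand at chr2:156775214-156775463, Cnn2 on the plus strand at chr10:79988350-79988599, and Tpm2 on the minus strand at chr4:43523555-43523804.
Acta2: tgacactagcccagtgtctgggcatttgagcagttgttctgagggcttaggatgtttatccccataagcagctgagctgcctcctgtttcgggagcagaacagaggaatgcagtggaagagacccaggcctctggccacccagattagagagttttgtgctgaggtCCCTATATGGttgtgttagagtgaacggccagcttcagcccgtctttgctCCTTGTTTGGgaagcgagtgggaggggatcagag
Myl9: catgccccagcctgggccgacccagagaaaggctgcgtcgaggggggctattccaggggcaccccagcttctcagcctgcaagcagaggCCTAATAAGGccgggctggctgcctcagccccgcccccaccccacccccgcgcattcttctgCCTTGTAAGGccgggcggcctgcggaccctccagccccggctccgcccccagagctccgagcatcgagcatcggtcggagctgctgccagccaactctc
Cnn2: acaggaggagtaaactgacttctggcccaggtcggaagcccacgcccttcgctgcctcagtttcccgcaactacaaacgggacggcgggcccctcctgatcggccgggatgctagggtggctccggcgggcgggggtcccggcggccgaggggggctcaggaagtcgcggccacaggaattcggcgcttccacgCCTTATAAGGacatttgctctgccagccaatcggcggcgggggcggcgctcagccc
Tpm2: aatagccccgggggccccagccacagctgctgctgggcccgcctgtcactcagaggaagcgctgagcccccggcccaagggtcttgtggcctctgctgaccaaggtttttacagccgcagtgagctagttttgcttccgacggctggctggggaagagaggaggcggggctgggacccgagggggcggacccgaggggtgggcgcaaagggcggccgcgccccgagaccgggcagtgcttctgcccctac
The window of Acta2 held 2 elements of the second form, CCCTATATGG and CCTTGTTTGG, which begin 84 and 34 bases before the RefSeq start. That start lies inside the gene as given by GENCODE M21 (chr19:34241090-34255590), so these elements are not upstream of the GENCODE start. The window of Tpm2 also lies mostly inside its GENCODE gene, and those of Myl9 and Cnn2 reach into theirs over a shorter stretch. Myl9 held the consensus CCTAATAAGG at 161 bases and the second form CCTTGTAAGG at 99 bases, and Cnn2 held the consensus CCTTATAAGG at 56 bases. No element of either form stood in these letters of the windows of Tpm2, Tpm1, Cnn1 or Lmod1, which says nothing of elements further away. Either form was present in 3 of the 7 windows, against 8.59% of 32851 RefSeq windows of the same length, and the consensus alone in 2 of 7 against 1.47%. The second form was added after the data were seen, and Acta2 is among the 3 only by that form. The letters CATTCC of the MCAT element, searched on both strands, stood in the windows of Acta2, Lmod1 and Tpm1, against 12.6% of all windows. These matches are matches of letters and were not tested for binding.

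The targeted gene was checked first. Slmap had 44.3, 32.7, 36.3 and 39.7 CPM in SLMAP3-/- replicates 1 to 4 and 124, 139, 143 and 141 CPM in WT replicates 1 to 4, where CPM is the count scaled to a common library size after TMM normalisation. The groups did not overlap, with a log2 fold change of -1.84, an SE of 0.11 and, by the quasi-likelihood test of edgeR, an adjusted p of 0.00119. The count sums all exons, so the deleted exon was not measured by itself.

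Levels were compared between genes per length, as CPM per kb of the longest protein-coding transcript in GENCODE M21. Acta2 was the most abundant of the 10 genes, at 1028 ± 397 CPM per kb (SD, n = 8). Tpm1, which encodes a tropomyosin that winds along actin filaments, followed at 685 ± 179, and Tagln, which encodes the actin-binding transgelin, at 557 ± 199 CPM per kb. Acta2 stood above Tpm1 in 7 of 8 lines, the exception being WT replicate 1, and Tpm1 stood above Tagln in 8 of 8 lines, although the ranges over lines overlapped. A middle tier was formed by Myl9, the regulatory myosin light chain, at 240 ± 91.3, Cnn2, a calponin of wide tissue distribution, at 238 ± 64.6, and Tpm2, a further tropomyosin, at 206 ± 68.7 CPM per kb. Myl9 and Cnn2 could not be ordered, since Myl9 was higher in 5 of 8 lines. Cnn1, the calponin of differentiated smooth muscle, had 84.8 ± 32.3 CPM per kb.
The remaining genes were far lower. Actg2, the enteric smooth muscle actin, had 10.8 ± 6.17 CPM per kb, and Lmod1, a leiomodin that nucleates actin filaments in smooth muscle, had 6.60 ± 3.74, with overlapping ranges. Myh11, the heavy chain of smooth muscle myosin, had 0.146 ± 0.0971 CPM per kb and only 14 to 119 estimated counts per line. The program of these MEFs was thus rich in Acta2, Tagln and tropomyosin transcripts and had very little Myh11. Levels of other smooth muscle and mural genes were mixed. Des had 0.134 to 0.425 CPM, Kcnmb1 0 to 0.374 CPM, and Myocd, which encodes myocardin, 0.482 to 1.95 CPM, whereas Smtn, which encodes smoothelin, had 73.3 to 131 CPM, Itga8 5.53 to 72.2 CPM, Mylk, the myosin light chain kinase, 3.14 to 26.2 CPM and Notch3 4.47 to 19.2 CPM. Tpm1 and Tpm2 are spliced into muscle and non-muscle forms, and the gene counts do not tell those forms apart.

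No difference between SLMAP3-/- and WT lines passed the test for any of the 10 contractile genes. In edgeR's quasi-likelihood test, 0 of 10 had an adjusted p under 0.05 and 0 of 10 an unadjusted p under 0.05, and DESeq2 and limma-voom also gave 0 at both limits. Over all 15461 tested genes, 1 gene, Slmap, or 0.00647%, passed the adjusted limit and 1.81% the unadjusted limit. The lines of both genotypes overlapped for 10 of 10 genes, and separation of the groups was seen for 1.25% of all tested genes. The log2 fold changes of the 10 genes ran from -0.40 to 0.26 with a median of 0.15, where the median of all tested genes was -0.0014, and 6 of 10 were above 0. The median moved with single lines, to 0.0029 without WT replicate 1, 0.0096 without SLMAP3-/- replicate 1, 0.031 without SLMAP3-/- replicate 4, 0.085 without WT replicate 4, 0.34 without SLMAP3-/- replicate 3 and 0.35 without WT replicate 2.

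**Figure D1:**
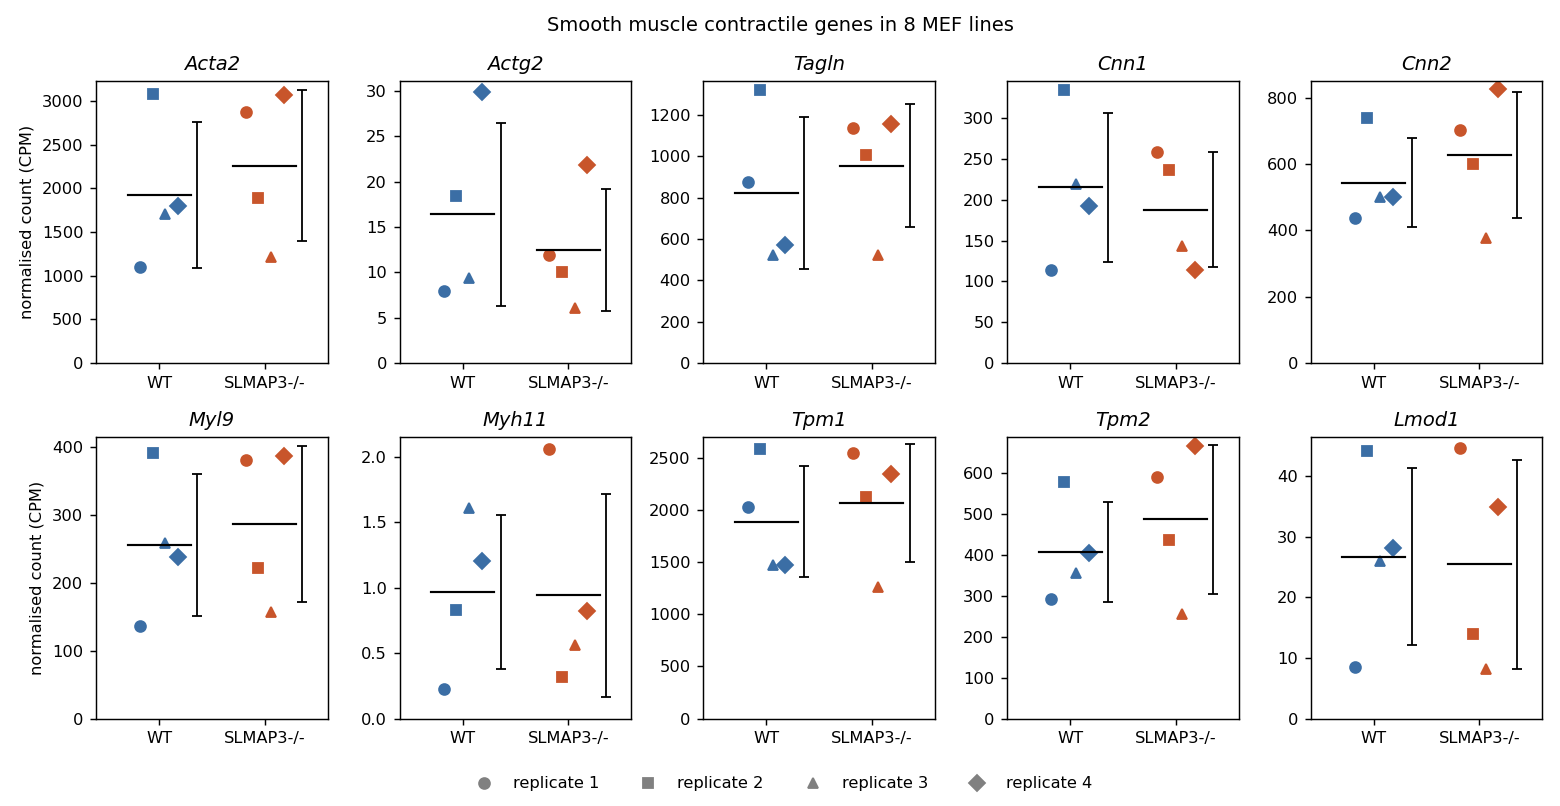
Normalised count (CPM, linear axes that start at 0) of each of the 10 genes in the 4 WT and 4 SLMAP3-/- lines. Symbols give the replicate number, horizontal lines the group mean and bars the SD of 4 lines. The groups overlap in every panel, as for Acta2 with 1095 to 3086 CPM in WT and 1212 to 3064 CPM in SLMAP3-/- lines.

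Among the actins, Acta2 (ENSMUSG00000035783.9, chr19:34241090-34255590, minus strand) had 2872, 1894, 1212 and 3064 CPM in SLMAP3-/- replicates 1 to 4. In WT replicates 1 to 4 it had 1095, 3086, 1712 and 1804 CPM. Each genotype thus held at least 1 line of high and 1 line of low Acta2, and the groups overlapped. The means were 2261 ± 867 CPM (SD, n = 4) and 1924 ± 836 CPM (SD, n = 4), and the log2 fold change was 0.23 with a 95% interval from -0.61 to 1.07. Actg2 (ENSMUSG00000059430.14, chr6:83512905-83536265, minus strand) had 11.9, 10.0, 6.11 and 21.9 CPM in SLMAP3-/- lines and 8.00, 18.4, 9.35 and 29.9 CPM in WT lines. It was highest in WT replicate 4, and its log2 fold change of -0.40 had an interval from -1.54 to 0.74. Of the 31-base stretches of the Actg2 transcript 1.46% also occur in transcripts of other genes, and the share for Acta2 was similar.

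Tagln (ENSMUSG00000032085.5, chr9:45929619-45936058, minus strand) had 1136, 1007, 522 and 1156 CPM in SLMAP3-/- lines. In WT lines it had 874, 1321, 521 and 570 CPM. The lowest values of the genotypes, in SLMAP3-/- replicate 3 and WT replicate 3, were nearly equal, and the log2 fold change was 0.22 (95% interval -0.57 to 1.01). Tagln overlaps Pcsk7 and Gm48529 on the opposite strand, and these had at most 53.6 and 4.14 CPM in any line. Cnn1 (ENSMUSG00000001349.5, chr9:22099216-22109630, plus strand) had 259, 237, 143 and 114 CPM in SLMAP3-/- lines and 114, 335, 220 and 193 CPM in WT lines. Its lowest values, in SLMAP3-/- replicate 4 and WT replicate 1, were alike and its log2 fold change was -0.20 (95% interval -1.01 to 0.62). Cnn2 (ENSMUSG00000004665.10, chr10:79988584-79996062, plus strand) had 702, 599, 378 and 828 CPM in SLMAP3-/- lines and 436, 740, 501 and 500 CPM in WT lines. It varied less than its paralogue Cnn1, and its log2 fold change of 0.20 had an interval from -0.37 to 0.78.

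Myl9 (ENSMUSG00000067818.6, chr2:156775420-156781658, plus strand), whose product is phosphorylated to switch on contraction, had 380, 222, 157 and 386 CPM in SLMAP3-/- lines. In WT lines it had 136, 390, 258 and 237 CPM. The order of lines was close to that of Acta2, and the log2 fold change was 0.17 (95% interval -0.68 to 1.01). Myh11 (ENSMUSG00000018830.10, chr16:14194535-14291372, minus strand) had 2.06, 0.320, 0.562 and 0.824 CPM in SLMAP3-/- lines and 0.226, 0.832, 1.61 and 1.21 CPM in WT lines. These values rest on few counts, and the interval of its log2 fold change of -0.037 was the widest, from -1.62 to 1.54.

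Tpm1 (ENSMUSG00000032366.15, chr9:67022590-67049406, minus strand) had 2544, 2126, 1262 and 2351 CPM in SLMAP3-/- lines and 2033, 2583, 1475 and 1469 CPM in WT lines. The ratio between its highest and lowest line, 2.05, was the smallest of the 10 genes, and the log2 fold change was 0.13 (95% interval -0.46 to 0.72). Tpm2 (ENSMUSG00000028464.16, chr4:43514711-43523765, minus strand) had 590, 437, 255 and 666 CPM in SLMAP3-/- lines and 293, 578, 355 and 406 CPM in WT lines. Its log2 fold change of 0.26, the highest of the 10 genes, had an interval from -0.46 to 0.97. Lmod1 (ENSMUSG00000048096.7, chr1:135324807-135368065, plus strand) had 44.6, 14.0, 8.15 and 34.9 CPM in the SLMAP3-/- lines and 8.51, 44.2, 25.9 and 28.1 CPM in WT lines. Both genotypes held a line above 44 CPM and a line under 9 CPM, and the log2 fold change was -0.068 (95% interval -1.44 to 1.31).
The two-sided exact permutation p, which cannot fall below 0.0286 with 4 lines against 4, was 0.514 to 0.914 over the 10 genes. For Cnn2 the interval leaves room for differences up to 1.72-fold and for Acta2 up to 2.10-fold, so a moderate effect of genotype could not be detected here, and the p-values do not show that the levels were equal.

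**Figure D2:**
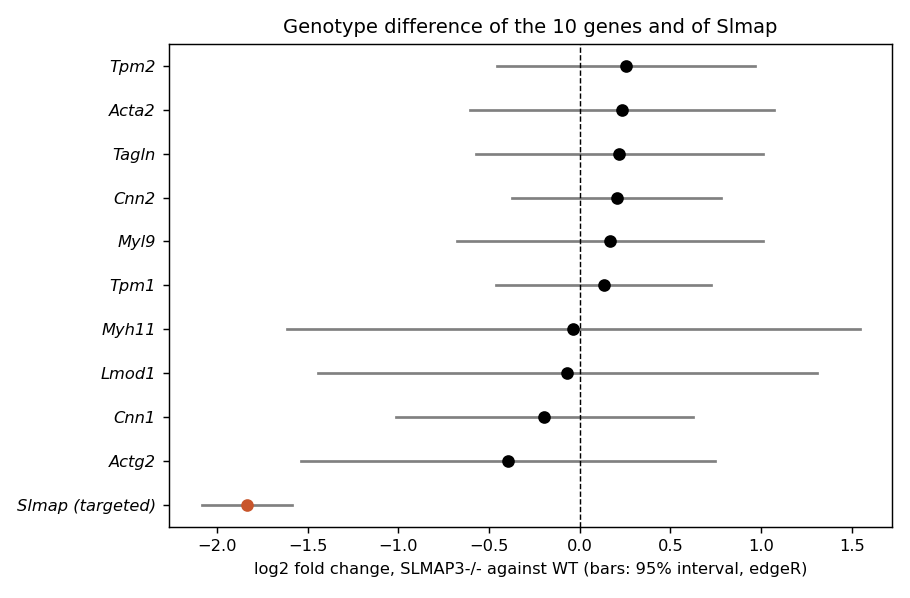
Log2 fold change of SLMAP3-/- against WT lines for the 10 genes and for Slmap, with 95% intervals from edgeR's quasi-likelihood fit to 4 against 4 lines. The intervals of the 10 genes all include 0, while that of Slmap runs from -2.09 to -1.59.

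The contractile genes differed widely between lines within each genotype. The SD of log2 CPM over the 8 lines was 0.40 for Cnn2 and for Tpm1, 0.58 for Acta2, 0.59 for Myl9, 1.00 for Lmod1 and 1.04 for Myh11. The median of the 10 genes was 0.58, against 0.27 for all tested genes and 0.19 for the 9437 tested genes with a mean of at least 10 CPM. Myh11 lay below that level. Among all tested genes Acta2 stood at percentile 78.1 of the spread, Cnn2 at percentile 65.1, and Lmod1 at percentile 91.4. Among the genes with a mean of at least 10 CPM the percentiles were 93.5, 86.9 and 98.2 in the same order. WT replicate 2 lay above the mean of the lines for 10 of 10 genes, and SLMAP3-/- replicates 1 and 4 for 9 of 10 genes each. SLMAP3-/- replicate 3 lay below the mean for 10 of 10 genes and WT replicate 1 for 8 of 10. High and low lines were therefore present in both genotypes. The lines with the lowest Acta2, WT replicate 1 and SLMAP3-/- replicate 3, had the largest total counts, 63322486 and 59854680. SLMAP3-/- replicate 1, a line of high Acta2, came next with 58820110. WT replicate 3, with Acta2 below the mean, had the smallest total. Pearson's r of log2 CPM with total counts over the 8 lines was -0.47 for Acta2. Over the 10 genes it ran from -0.51 for Myl9 to -0.083 for Tagln. The part of depth in the pattern was not tested.

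Covariation of the 10 genes over the 8 lines was then examined with Acta2 as the reference, since it is the usual marker of myofibroblasts. Pearson's r of log2 CPM with Acta2 was above 0 for 9 of 9 genes, with a median of 0.71, where the median over all other tested genes was 0.0060. By Pearson's r, Myl9 stood first of the 15460 other tested genes, with r = 0.98. Its Spearman's rho was 0.90, below that of Cnn2 and of genes outside the set such as Tmod3 (0.95) and Wdfy1 (0.93). Tpm2 had r = 0.97 and rho = 0.90, with 2 genes above it, Cnn2 had r = 0.96 and rho = 0.93, with 8 genes above it, and Lmod1 had r = 0.91 and rho = 0.83, with 40 genes above it. The exact permutation p for r over all pairings of the lines was 0.000819 for Myl9, 0.000570 for Tpm2, 0.000595 for Cnn2 and 0.00352 for Lmod1. The exact permutation p for rho was 0.00456, 0.00456, 0.00223 and 0.0154 in the same order. After Benjamini-Hochberg adjustment over all 15460 genes, the exact permutation p was 0.294 for r of Myl9, Tpm2 and Cnn2 and 0.368 for Lmod1, and for rho it was 0.438 for the former and 0.488 for Lmod1. No gene passed the adjusted limit, 0 of 9 here and 0% of all genes, while an unadjusted p under 0.05 with positive r was found for 4 of the 9 genes and for 4.31% of all genes, or 8.73% in either direction. For rho the numbers were 6 of 9 and 3.84%.

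The remaining genes followed Acta2 less closely. Tpm1 had r = 0.71 (rho = 0.81), Tagln 0.70 (rho = 0.83), Actg2 0.64 (rho = 0.71), Myh11 0.55 (rho = 0.38) and Cnn1 0.49 (rho = 0.48), with exact permutation p of 0.0592, 0.0635, 0.0931, 0.165 and 0.215 for r. Their exact permutation p for rho was 0.0218, 0.0154, 0.0576, 0.3599 and 0.243, and the adjusted p was at least 0.488 for each measure. Without WT replicates 1 and 2, the lines farthest from the median of Acta2, r over the other 6 lines was 0.97 for Myl9, 0.99 for Tpm2, 0.98 for Cnn2 and 0.85 for Lmod1. It was 0.91 for Tpm1, 0.85 for Tagln, 0.54 for Actg2 and 0.36 for Myh11, and was -0.0064 for Cnn1. Those 6 lines include SLMAP3-/- replicate 4, and with that line alone left out of the 8 the r of Cnn1 was 0.95. With the genotype means removed, r was 0.99 for Myl9, 0.97 for Tpm2, 0.95 for Cnn2 and 0.96 for Lmod1, so these relations were as large within genotypes.

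**Figure D3:**
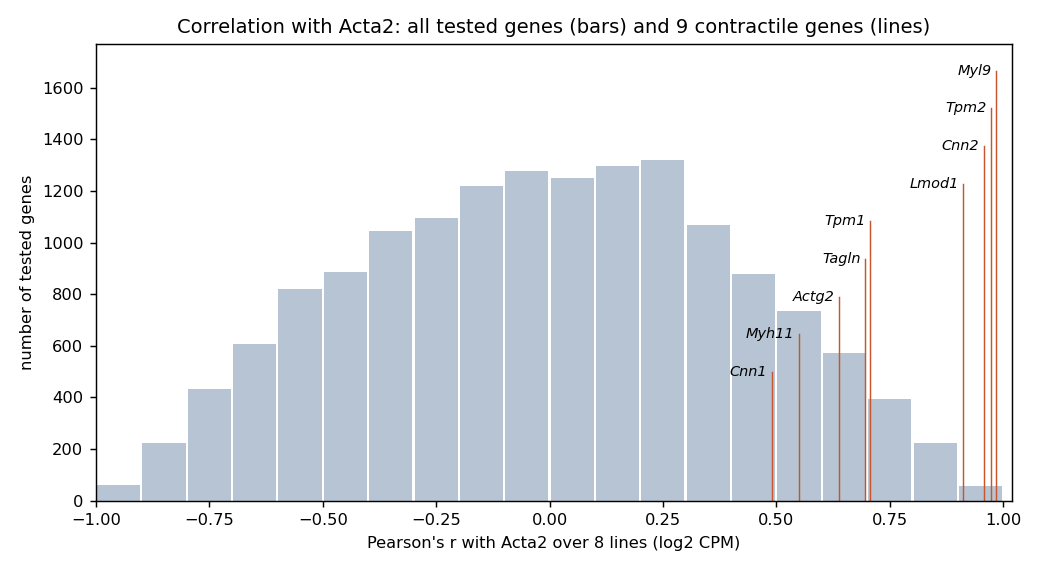
Distribution of Pearson's r with Acta2 over the 8 lines for all 15460 other tested genes (bars, number of genes per bin of r) and for the 9 other contractile genes (vertical lines, whose heights only carry the names). Myl9, Tpm2, Cnn2 and Lmod1 lie above 0.9 at the right edge, and Cnn1 lies lowest at 0.49.

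For 4 genes the line that departed most from Acta2 was left out, which raises r by construction, and the values are given as a description. Tagln and Tpm1 were at 874 and 2033 CPM in WT replicate 1, just above their mean over the lines on the log2 scale, where Acta2 was at its lowest, and without that line r with Acta2 was 0.89 for Tagln and 0.93 for Tpm1. Cnn1 had its lowest value in SLMAP3-/- replicate 4, a line of high Acta2, and without it r was 0.95. Actg2 was highest in WT replicate 4, where Acta2 was intermediate, and without that line r was 0.90. Other lines departed as well, since the ratio of Tagln to Acta2 was lowest in WT replicate 3 and that of Actg2 to Acta2 in SLMAP3-/- replicate 1. For Myh11 r stayed between 0.29 and 0.66 whichever line was left out.

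Among the 10 genes, Tagln had its highest r with Tpm1 and Tpm1 with Tagln, at 0.98, and their ratio varied 1.45-fold over the lines. Both also had r of 0.82 and 0.83 with Cnn2, and outside the set 2 genes were closer to each of them. The ratio of Myl9 to Acta2 varied 1.28-fold, while those of Tagln to Acta2, Cnn1 to Acta2 and Actg2 to Acta2 varied 2.62-fold, 3.47-fold and 4.01-fold. The highest r of all was that of Cnn2 with Tpm2, 0.99. Over the 45 pairs of the 10 genes, r ranged from -0.11 for Tagln with Myh11 to 0.99, with a median of 0.62, and 43 pairs were above 0. Among all pairs of genes with a mean of at least 10 CPM the median was 0.011 and 10.3% reached the median of the 10 genes. The lines are shared by all these values, so the pairs are not independent.

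**Figure D4:**
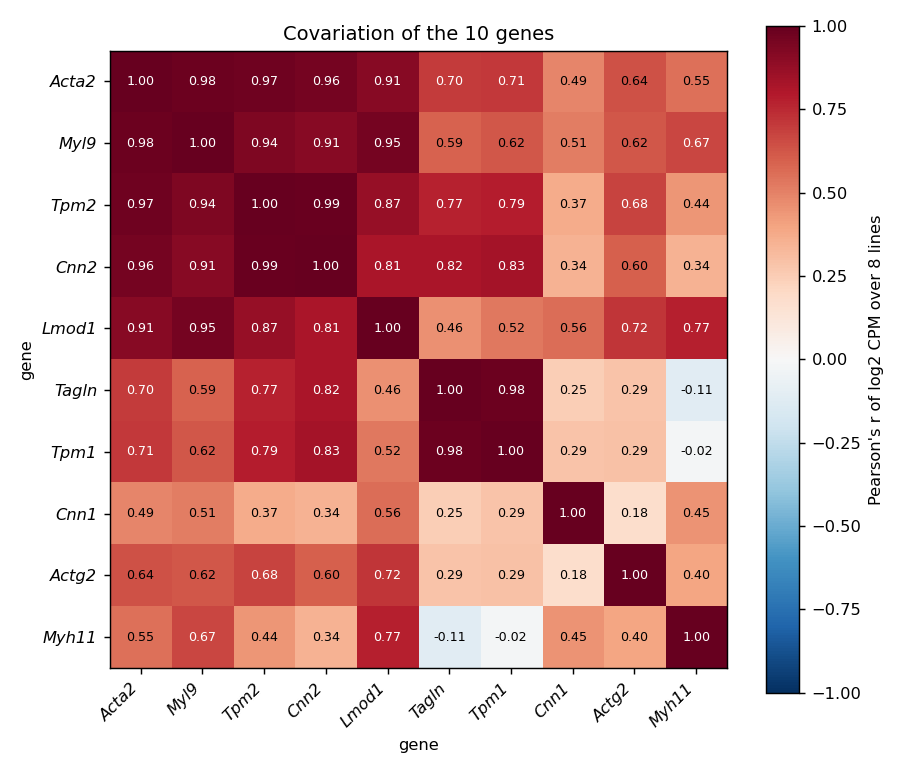
Pearson's r of log2 CPM over the 8 lines for each pair of the 10 genes, from blue (-1) to red (1). Acta2, Myl9, Tpm2, Cnn2 and Lmod1 form a block with r of at least 0.81, and Tagln and Tpm1 have r = 0.98 with each other and 0.82 and 0.83 with Cnn2.

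Acta2 was at or above 2872 CPM in WT replicate 2 and SLMAP3-/- replicates 4 and 1 and at or below 1894 CPM in the other 5 lines. The same 3 lines were the highest for 6 of the 9 other genes, Myl9, Tpm2, Cnn2, Lmod1, Tagln and Tpm1, and for 3.11% of all other tested genes. The same 2 lines were the lowest for 5 of the 9 genes, against 3.82% of all other tested genes.

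**Figure D5:**
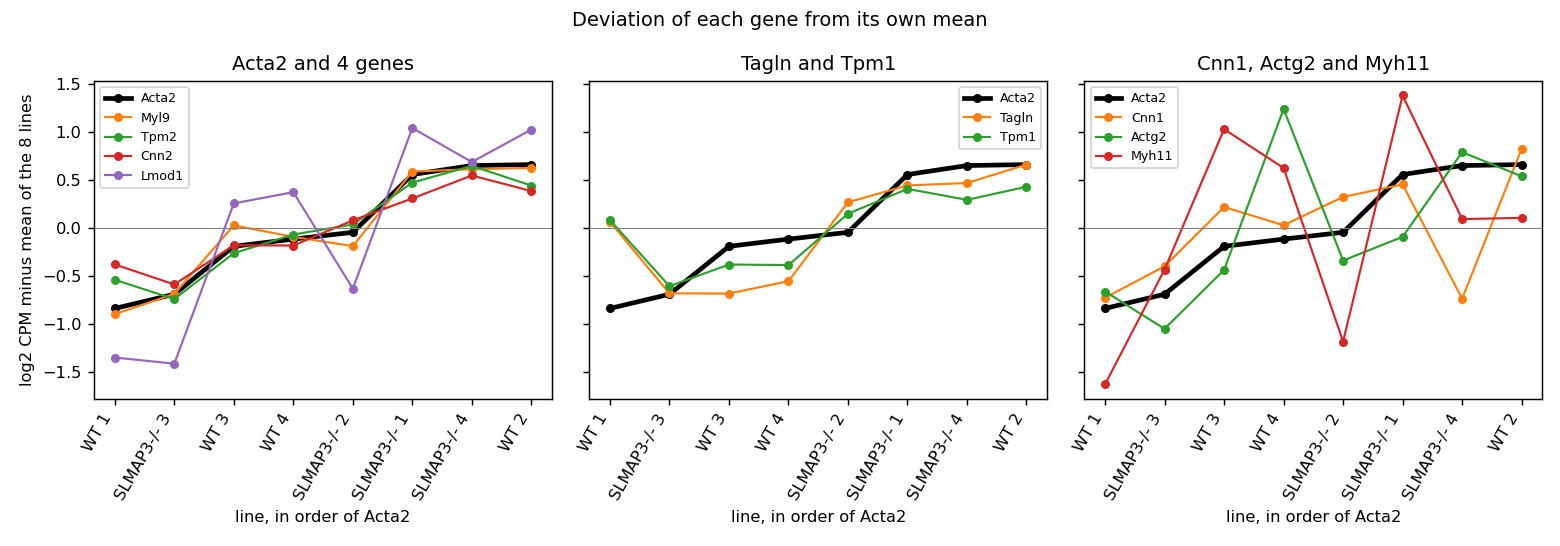
Log2 CPM of each gene minus its mean over the 8 lines, with lines in order of Acta2 (black in every panel). Myl9, Tpm2 and Cnn2 run beside Acta2 and Lmod1 has a wider swing, Tagln and Tpm1 depart in WT replicate 1, Cnn1 and Actg2 depart in SLMAP3-/- replicate 4 and WT replicate 4, and Myh11 departs in several lines.

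By the rule for likeness of pattern, the genes outside the set with the highest r with Acta2, among 9428 with a mean of at least 10 CPM, included Myl6 (0.98), which encodes the essential light chain that partners Myl9 in myosin, Wdfy1 (0.97), Timp3 (0.96), an inhibitor of metalloproteinases, and 2310057M21Rik (0.96). Myl6 ran from 675 CPM in SLMAP3-/- replicate 3 to 1106 CPM in SLMAP3-/- replicate 1. Timp3 ran from 236 CPM in WT replicate 1 to 1028 CPM in SLMAP3-/- replicate 1, a wider span than that of Acta2. The lowest r was found for Kif21b (-0.99), a kinesin, B4galt7 (-0.98), Dapp1 (-0.96), Taf1 (-0.96) and Patz1 (-0.95). Kif21b had 25.2 CPM in WT replicate 1 and 4.35 CPM in WT replicate 2, the reverse of Acta2. These are the extremes of a large number of genes over 8 lines, and none passed adjustment (lowest adjusted exact permutation p = 0.294 for r).

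The wider contractile machinery was followed with 28 other genes of smooth muscle and contraction, of which 26 had enough counts to be tested. Between genotypes 0 of 26 had an adjusted or unadjusted p under 0.05 in edgeR's test, with 17 log2 fold changes above 0, 9 below and a median of 0.049. Itga1 (log2 fold change -0.84), Des (-0.52) and Mcam (-0.32) had the lowest unadjusted p of the list. With Acta2, r was above 0 for 23 of 26 genes, with a median of 0.57. The unadjusted p was under 0.05 for 9 of them with positive r, among them Myl6, Palld, Tgfb1i1, Csrp1, Itga8, Tln1, Fhl1 and Cald1, and for Mcam with negative r, where the share of all tested genes was 4.31% with positive r and 8.73% in either direction. None of them passed adjustment over all genes. These genes were named after their values were seen. Palld, which encodes the stress fibre scaffold palladin, had r = 0.95, Tgfb1i1, which encodes the focal adhesion protein Hic-5, 0.94, and Csrp1, a smooth muscle LIM protein, 0.92. Mcam had 50.9 to 111 CPM and r = -0.72.

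The paralogues of the contractile genes included the cytoplasmic actins and myosins and some genes of narrower expression. Of 15 genes 13 passed the filter, Lmod2 and Lmod3 being near 0, and 0 of 13 passed either limit between genotypes in edgeR's test. The median r with Acta2 was 0.56, and an unadjusted p under 0.05 was found for 5 of 13 with positive r (4.31% of all genes) and 1 with negative r, of which 0 passed adjustment. The cytoplasmic actins Actb and Actg1 had r = 0.71 and 0.81, and ranged from 2883 to 4887 CPM and from 2446 to 4957 CPM. Myl12a, a non-muscle regulatory light chain, had r = 0.82, and its neighbouring paralogue Myl12b had r = -0.86. The sequence shared by these paralogues was not measured, and the part of Salmon's division of reads in this contrast was not tested. Actb, Myh10 (log2 fold change 0.25) and Tagln3 (-0.35) had the lowest unadjusted p between genotypes. The sarcomeric actins were scarce, with 3.45 to 24.0 CPM for Acta1 and at most 0.0482 CPM for Actc1.

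Of 22 names listed for the SRF, MRTF and TGF-beta pathways, 20 were in the table and passed the filter, and 0 of 20 differed between genotypes at either limit, with Smad3 (log2 fold change 0.29), Rock1 (-0.16) and Klf4 (-0.53) lowest in unadjusted p. Their median r with Acta2 was 0.091, and 3 of 20 had an unadjusted p under 0.05, all with positive r, against 4.31% of all tested genes with positive r and 8.73% in either direction. So small a count is not read as a result about the list. The 3 genes were Rhoa, the GTPase that drives actin assembly, with r = 0.88, Mrtfa, which encodes MRTF-A, with r = 0.84, and Srf itself with r = 0.83. Srf ran from 55.3 to 135 CPM and Mrtfa from 105 to 166 CPM over the lines. Mrtfb, which encodes MRTF-B, had r = -0.70. The transcript level of the ligand Tgfb1 had r = -0.61 and that of its receptor Tgfbr1 0.69. These single values were not adjusted over the list, and none passed adjustment over all genes.

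Of 12 matrix genes of myofibroblasts, 4 had positive r with Acta2 and the median was -0.12. Thbs1, which encodes thrombospondin 1, had r = 0.81, whereas the collagen genes Col1a1 and Col1a2 had r = -0.15 and -0.57 and Fn1, which encodes fibronectin, -0.55. Between genotypes 9 of 12 log2 fold changes were below 0, with a median of -0.22. Col1a1 had an unadjusted p of 0.0458 in edgeR's test, with 5045 ± 521 CPM (SD, n = 4) in SLMAP3-/- and 6204 ± 729 CPM (SD, n = 4) in WT lines and an adjusted p of 1.00. Col1a2 (-0.33) and Col5a1 (-0.24) were next. Thus 1 of 12 matrix genes was under the unadjusted limit, against 1.81% of all tested genes. So small a count is not read as a result about the list.

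Markers of other cells were examined beside these results. The fibroblast markers summed to 10350 to 14660 CPM in each line, mostly from Col1a1, Col1a2 and Vim. Other fibroblast markers were low or uneven, as Dcn had 0.323 to 14.8 CPM, Lum 0.113 to 18.5 CPM, and Pdgfra 17.4 CPM in WT replicate 1 against 79.0 to 179 CPM in the other lines. Dcn, Lum and Pdgfra were lowest in WT replicate 1, the line of lowest Acta2. Their r with Acta2 was 0.39, 0.29 and 0.45, and that of Vim was 0.86. These were the 4 of 10 fibroblast markers with positive r, and the median of the list was -0.12. Thy1 had r = -0.55 and was lowest, at 26.2 CPM, in WT replicate 2, the line of highest Acta2. Of the skeletal and heart muscle markers, Myod1 was listed at 0 in all lines and Myog had no more than 0.0482 CPM, while Acta1 had r = 0.80 with Acta2 (rho = 0.88, unadjusted exact permutation p = 0.0106 for r). The list summed to 9.72 to 25.5 CPM for SLMAP3-/- and 5.11 to 17.1 CPM for WT, and its part in the contractile pattern was not tested. Of the endothelial markers Cldn5 was listed at 0, Pecam1 and Cdh5 had at most 0.227 and 0.200 CPM, and Kdr had 7.87 to 28.4 CPM with r = 0.87 with Acta2. Tek, a receptor of endothelium, had 2.11 to 12.2 CPM in SLMAP3-/- lines against 1.55 to 4.76 CPM in WT lines (log2 fold change 1.41, unadjusted p = 0.0320 and adjusted p = 1.00 in edgeR's test) and r = 0.20 with Acta2. The part of either gene in the contractile pattern was not tested. The epithelial and immune lists summed to at most 4.71 and 5.74 CPM. The markers of mural cells summed to 148 to 210 CPM for SLMAP3-/- and 222 to 317 CPM for WT, without overlap. This sum was almost wholly Cspg4, which encodes the proteoglycan NG2 and had 141 to 191 CPM in SLMAP3-/- and 213 to 307 CPM in WT lines, while Kcnj8, Higd1b and Abcc9 had at most 0.0384 CPM. Cspg4 had r = -0.054 with Acta2 and, between genotypes, a log2 fold change of -0.57 with an unadjusted p of 0.00655 and an adjusted p of 1.00 in edgeR's test, and its part in the contractile genes was not tested. Over all tested genes, 1.25% showed no overlap between genotypes and 1.81% had an unadjusted p under 0.05 in edgeR's test. Of the 4 mural markers tested 1 was under that limit, and so small a count is not read as a result about mural markers. In bulk RNA, a change in the number of contractile cells and a change in the transcripts of each cell cannot be told apart.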

How the data were processed

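RNA-seq of 8 immortalized MEF lines, 4 SLMAP3-/- and 4 WT, was analysed from the table that the authors deposited. Stranded mRNA libraries were sequenced, and the authors assigned the reads to the GENCODE M25 transcriptome of GRCm38 with Salmon and deposited gene-level estimated counts scaled for transcript length, without normalisation between lines. A further deposited table holds the authors' own DESeq2 comparison (fold changes and p-values) and was not used. The versions of Salmon and DESeq2 they used are not given in the sources used here. Since Salmon divides reads between transcripts, counts of genes with shared sequence depend on that division.

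Estimated counts were rounded. Genes were kept by filterByExpr (minimum count 10, 15461 genes), normalised by TMM and compared by the quasi-likelihood test of edgeR 4.0.16 in R 4.3.3 without covariates, with p-values adjusted by Benjamini and Hochberg's method across the tested genes and a limit of 0.05. The filter took the genotypes as groups. Standard errors and 95% intervals were derived from the F statistic. Log2 CPM used a prior count of 2. Correlations with Acta2 over the 8 lines were tested for every gene by two-sided exact permutation over all pairings of the lines, which cannot give a p below 2.48e-05, with scipy 1.17.1, numpy 2.4.6 and Python 3.11.15. DESeq2 1.42.0 and limma-voom (limma 3.58.1) were alternatives. edgeR, DESeq2, limma-voom and the correlation test were tested on simulated data first. Gene positions and lengths come from GENCODE M21 and promoters from RefSeq, both on GRCm38. The number of lines, and not the depth of 49879059 to 63322486 counts, limits the precision, except for Myh11 with as few as 14 counts. Lines of a genotype differed by far more than counting noise, with a chi-square per degree of freedom of at least 61.9, so that no library was a repeated sequencing of another. WT replicates 3 and 4 were the closest pair, at 61.9, and the other pairs had 112 to 250. This measure cannot tell separate cultures of a single line from different lines.

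Groups and replicate numbers were taken from the sample titles. The 10 genes, the gene lists, the motifs and the tests were chosen with earlier results of these data known. The genes named are the 10 genes, Slmap, up to 3 genes per pathway list with the lowest unadjusted p between genotypes, the 5 genes with the highest and 5 with the lowest r with Acta2, and near copies of the actins. Some genes that the rule or the lists hold are not reported here. The second form of the CArG box, the comparison of which lines were highest and lowest, the ratios between genes and other named genes of the lists were added after seeing the data.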

Additional observations from a re-analysis of the deposited data

How the results depend on the processing

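Of the 10 contractile genes, 0 differed between genotypes at an adjusted p under 0.05 under every alternative run. These runs included DESeq2, limma-voom, other normalisations, filters and limits, counts that were not rounded, robust empirical Bayes and leaving out each line. The correlations with Acta2 had other alternatives, and in each 0 of 9 had an adjusted p under 0.05. They were Spearman's rho, another prior count, DESeq2 size factors, a stricter filter, genotype means removed and lines left out. The smallest possible exact permutation p was 0.000198 with 1 line left out. It was 0.00139 without WT replicates 1 and 2 and 0.00174 with genotype means removed. Adjusted over all tested genes, a call there needed many genes at this smallest value, so those runs say little. Between genotypes, DESeq2 called 11 of all tested genes and the replicate block 0, against 1 in edgeR and in each fit without 1 line. Under the block the log2 fold change of Slmap was -1.84, with an adjusted p of 0.171. The replicate numbers gave no sign of pairing the lines, since the correlations of the deviations of same-numbered lines were -0.157, 0.058, 0.187 and -0.003, and the block changed no call among the 10 genes. The line names MEF10A (SLMAP3-/- replicate 3) and MEF10B (WT replicate 4) share a number, and a pairing by line name was not tested.

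With 1 line left out, the log2 fold change ran from 0.044 to 0.56 for Acta2, from -0.82 to 0.068 for Actg2, from -0.40 to 0.099 for Cnn1, from -0.038 to 0.45 for Myl9, from -0.76 to 0.33 for Myh11 and from -0.48 to 0.29 for Lmod1, so that the sign of the last 5 depended on the lines. The median r over pairs of the 10 genes ran from 0.515 to 0.763, and their median SD from 0.52 to 0.62. Spearman's rho gave 0.714. Without WT replicates 1 and 2 the r of Cnn1 with Acta2 was -0.0064. With the median instead of the longest coding transcript, levels per kb were 1463 for Acta2, 1206 for Tpm1, 905 for Tagln, 346 for Cnn2, 193 for Cnn1 and 18.7 for Actg2, and Cnn2 and Tpm2 then stood above Myl9. The order of the other genes was the same.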
